A study of Homo sapiens with 32 samples.

Results

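The genes described here are 44 genes of DNA repair and of the DNA damage checkpoint, picked by name and not by their values, in 7 human B-lymphoblastoid cell lines. A lymphoblastoid line is a culture of B cells that grow without limit after transformation by Epstein-Barr virus, and these lines came from the HapMap panel held at Coriell. A gene was followed through the transcript cluster, the set of array probes assigned to it, that carried its symbol and no other. Of the 44 genes, 33 had such a cluster among the 21788 clusters of the array, and 32 of them were bright enough to be tested. ATM, ERCC6, FANCL, PMS2, RAD50, XRCC1 and XRCC5 were represented only by clusters that also carry another gene's symbol. BRCA2, FANCA, FANCD2 and MSH3 are not analysed here.

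Every culture, without exception, was given 200 µM 4-thiouridine (4sU) for 2 h, so no array comes from unlabelled cells. This nucleoside is built into RNA made during the labelling time and lets that RNA be pulled out. The nascent (4sU-labelled) RNA and the total RNA of a culture went onto separate exon arrays, 16 arrays of each fraction from 13 cultures. GM12813, GM07029 and GM10835 were grown as 3 independent cultures each, and both fractions of each GM12813 culture were hybridized in technical duplicate. GM07019, GM12812, GM12814 and GM12815 had 1 culture each. The series used the proportion of nascent to total RNA as a measure of mRNA stability and asked whether it differs between people. Read in that way, a short-lived transcript gives a high ratio and a long-lived one a low ratio.

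Cells repair damaged bases by excision of the base or of a short stretch of strand, replication errors by mismatch repair, and double-strand breaks either by copying an intact sister (homologous recombination) or by direct rejoining (non-homologous end joining). The Fanconi anaemia proteins deal with crosslinks between the strands, and the kinases ATM and ATR stop the cell cycle through CHEK2 and CHEK1 while repair goes on. B cells use several of these proteins also to cut and rejoin their immunoglobulin genes: UNG, the mismatch repair proteins and the end-joining proteins take part in class switching.

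Array medians lay between 7.58 and 7.92 in nascent RNA and between 6.74 and 6.95 in total RNA (log2 intensity). Each culture's ratio, nascent minus total on the log2 scale, was therefore centred on its median cluster, and only its position relative to other clusters can be read. A cluster was tested when its mean over 32 arrays was above 6.40, the 95th percentile of 216 olfactory receptor clusters, which left 14167 clusters. The mean correlation of ratios across clusters was 0.908 for cultures of 1 line and 0.798 for cultures of different lines. All 9 B cell markers with a cluster of their own were above background, against 1 of 9 markers of T and NK cells (NKG7) and 1 of 7 of monocytes and granulocytes (ELANE). Of the markers of fibroblasts and epithelia, 4 of 9 passed. The number of arrays limits the precision of every value, and each array measured a whole culture, so that fewer expressing cells and less RNA per cell cannot be told apart.

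Over the 7 lines the mean ratios of the repair and checkpoint genes were spread from -1.69 to 1.71 and did not share a direction. The ratio was higher than that of the median cluster in 12 of 32 genes, lower in 8, and did not pass the test in 12. Of all tested clusters, 63.5% passed the same test, 31.7% on the higher side and 31.7% on the lower, so that the 62.5% of repair genes was close to the background. The median ratio was -0.04 for the repair genes and -0.01 for all tested clusters. In 18 of the 32 genes the ratio had the same sign in all 7 lines, as it had in 50.1% of all clusters. Among the called genes, 3 were higher by at least 1 on the log2 scale (ERCC5, MSH6 and TP53BP1) and 4 were lower by at least 1 (FANCI, CHEK2, NBN and ERCC1). LIG4 fell just short of this step. Of all tested clusters, 9.18% were called higher and 5.93% called lower by at least 1. The standard deviation (SD) over lines ran from 0.08 in RAD51D to 0.59 in FANCF.

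**Figure D1:**
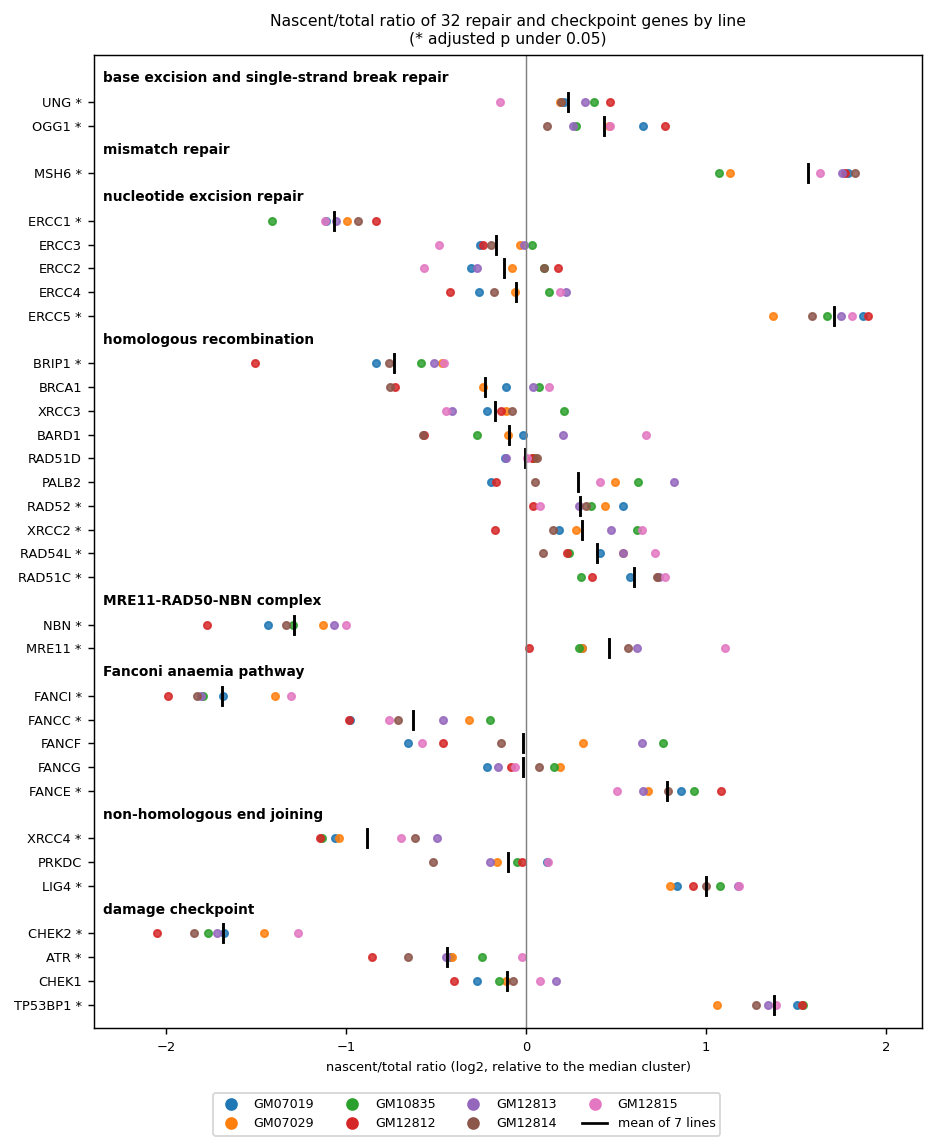
Nascent/total ratio of the 32 tested genes (log2, centred on the median cluster) on the horizontal axis, grouped by repair pathway; each point is 1 of 7 lines, the bar their mean, and an asterisk marks an adjusted p under 0.05. FANCI and NBN lay below -1 in every line, and ERCC5, MSH6 and TP53BP1 above 1 in every line. The CHEK2 points use nascent signal at background.

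In base excision repair, the ratios of both glycosylases among the 32 tested genes were higher. NEIL3, a glycosylase outside this set, had a low ratio and is given below. OGG1, which removes oxidised guanine, stood at 0.43 ± 0.23 (SD, n = 7 lines; adjusted p = 0.00156) and was positive in every line. Its total RNA was above the common background on 13 of 16 arrays. UNG, which removes uracil and acts in class switching, stood at 0.23 ± 0.20 (adjusted p = 0.0321) with 6 of 7 lines positive. GM12815 was the line below 0. The UNG call ended in 6 of the 7 settings that left out a line (adjusted p 0.058 to 0.0785) and after quantile normalization (0.0618).

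MSH6 (cluster 2481142), which takes part in recognising mismatches, was the one mismatch repair gene measured in this set and had one of its highest ratios. Its nascent RNA was between 9.74 and 10.33 with a median of 9.87, against 7.16 to 8.30 with a median of 7.50 in total RNA. The lowest nascent value was above the highest total value, a statement about 2 array scales whose medians differ. The ratio was 1.57 ± 0.32 (SD, n = 7; adjusted p = 1.2e-06), with 5 lines between 1.64 and 1.83 and GM07029 and GM10835 at 1.13 and 1.07.

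In nucleotide excision repair ERCC5 was higher, ERCC1 was lower, and both helicases of the TFIIH complex stayed near the median cluster. ERCC5 (cluster 3499632), the nuclease XPG that cuts the damaged strand on one side of the lesion, had nascent levels of 9.56 to 10.08 (median 9.94) against total levels of 7.10 to 7.80 (median 7.40). All 7 lines were high, and the ratio averaged 1.71 ± 0.19 (SD, n = 7; adjusted p = 4.83e-07), the highest of the 32 genes. ERCC1 (cluster 3865378), the non-catalytic subunit of the nuclease that cuts on the other side, had nascent levels of 7.94 to 9.04 (median 8.54) against total levels of 8.41 to 9.63 (median 8.73). The levels overlapped between fractions, but the centred ratio was below -0.8 in every line and averaged -1.07 ± 0.18 (adjusted p = 1.18e-06). Its catalytic partner ERCC4 (XPF) averaged -0.06 ± 0.25, and the helicases ERCC2 and ERCC3 averaged -0.12 ± 0.27 and -0.17 ± 0.18. None of these 3 passed the test.

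Of the 10 homologous recombination genes measured in this set, 4 were higher, 1 was lower and 5 did not pass. The higher genes were the recombination genes RAD51C (0.60 ± 0.19) and XRCC2 (0.31 ± 0.29), the motor protein RAD54L (0.39 ± 0.22) and the annealing protein RAD52 (0.30 ± 0.18). XRCC2 lost its call without GM10835, GM12813 or GM12815 (adjusted p 0.0524 to 0.0587) and after quantile normalization (0.063). BRIP1, the helicase that binds BRCA1, was lower at -0.73 ± 0.37 (adjusted p = 0.000236).

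BRCA1 (cluster 3758317), which directs broken ends towards recombination, did not pass. Its nascent levels were 7.32 to 8.49 (median 8.15) against total levels of 7.19 to 7.97 (median 7.30). The ratio was -0.73 in GM12812 and -0.76 in GM12814 and between -0.24 and 0.12 in the other 5 lines. Its mean was -0.23 ± 0.37 (adjusted p = 0.113), and BRCA1 was called lower after quantile normalization of all arrays (-0.33, adjusted p = 0.0371). BARD1, the partner of BRCA1, averaged -0.09 ± 0.44 and also had its lowest ratios in GM12812 and GM12814. PALB2, which joins BRCA1 to BRCA2, averaged 0.29 ± 0.40 (adjusted p = 0.0661), and RAD51D and XRCC3 averaged -0.01 ± 0.08 and -0.17 ± 0.22.

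The MRE11-RAD50-NBN complex binds broken ends and activates ATM. NBN (cluster 3143970) had nascent levels of 9.06 to 10.49 (median 9.43) against total levels of 9.44 to 10.85 (median 10.20). Within each line the total value was the higher one. The NBN ratio averaged -1.29 ± 0.26 (SD, n = 7; adjusted p = 1.18e-06) and was lowest in GM12812 at -1.77. MRE11 (cluster 3387033), the nuclease of the complex, had nascent levels of 7.89 to 8.84 (median 8.72) against total levels of 6.81 to 7.74 (median 7.42). The fractions did not overlap for MRE11, and its ratio was higher at 0.46 ± 0.35 (adjusted p = 0.00475), from 0.01 in GM12812 to 1.11 in GM12815.

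Among the 5 Fanconi anaemia genes measured in this set, FANCI and FANCC were lower, FANCE was higher, and FANCF and FANCG did not pass. FANCI (cluster 3607510), the partner of FANCD2 on crosslinked DNA, had nascent levels of 8.82 to 9.59 (median 9.44) against total levels of 9.92 to 10.51 (median 10.22). Nascent values were below total values in every line with no overlap, the reverse of the order of the array medians. Its ratio of -1.69 ± 0.25 (adjusted p = 4.94e-07) was the lowest of the tested genes other than CHEK2, whose ratio has only an upper bound. The core complex subunits FANCC and FANCE averaged -0.63 ± 0.31 and 0.79 ± 0.19, and FANCG averaged -0.02 ± 0.16. FANCF, another subunit of the core complex, averaged -0.02 ± 0.59, with ratios from -0.66 in GM07019 to 0.76 in GM10835.

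In non-homologous end joining, the genes of 2 proteins of the ligase complex had RNA ratios on opposite sides of the median cluster. LIG4 (cluster 3524999), the ligase, had nascent levels of 8.18 to 8.79 (median 8.63) against total levels of 6.44 to 7.23 (median 6.79). Its total level was above the common background on 15 of 16 arrays, and its ratio was 1.00 ± 0.15 (adjusted p = 1.84e-06). XRCC4 (cluster 2818454), the scaffold that holds the ligase, had nascent levels of 8.22 to 9.55 (median 9.08) against total levels of 8.27 to 9.85 (median 9.00). These ranges nearly coincided, and the centred ratio was -0.88 ± 0.27 (adjusted p = 1.3e-05), negative in every line.

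PRKDC (cluster 3134034), the kinase subunit of DNA-PK, had nascent levels of 9.76 to 10.69 (median 10.47) against total levels of 9.04 to 10.08 (median 9.74). Its ratio of -0.10 ± 0.22 did not pass (adjusted p = 0.325), and it was 0.06 after quantile normalization. XRCC6 (cluster 3946970), the smaller Ku subunit, had nascent levels of 6.84 to 7.73 (median 7.00) against total levels of 4.83 to 5.70 (median 5.22). Its mean over the 32 arrays was 6.23, below the limit of 6.40, so XRCC6 was not tested. Its total level was above the background of the total arrays alone (5.97) on 1 of 16 arrays and its nascent level above that of the nascent arrays (6.84) on 13 of 16, so no ratio is given.

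Of the checkpoint genes measured in this set, TP53BP1 was higher, CHEK2 and ATR were lower, and CHEK1 did not pass. TP53BP1 (cluster 3621194), which shields broken ends and favours end joining, had nascent levels of 8.84 to 9.52 (median 9.11) against total levels of 6.71 to 7.58 (median 6.93). The fractions were well apart in every line, and the ratio was 1.38 ± 0.17 (adjusted p = 6.18e-07). CHEK2 (cluster 3956433), the kinase that acts below ATM, had nascent levels of 6.17 to 6.66 (median 6.40) against total levels of 6.79 to 7.61 (median 7.39). The 95th percentile of the olfactory receptor clusters on the nascent arrays alone was 6.84, and CHEK2 was above it on 0 of 16 nascent arrays. The measured ratio of -1.69 ± 0.26 (adjusted p = 4.94e-07) therefore rests on nascent signal at background. With the nascent background in place of that signal the ratio averaged -1.26, between -1.59 and -0.59 over the lines, which is an upper bound. CHEK2 was the only tested repair or checkpoint gene of the 44 with a nascent or total array at or below the background of its own fraction.

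ATR (cluster 2698844), the kinase that senses stalled forks, had nascent levels of 8.01 to 8.85 (median 8.63) against total levels of 7.996 to 8.51 (median 8.06). The levels overlapped, and the ratio was -0.44 ± 0.27 (adjusted p = 0.00195), between -0.86 in GM12812 and -0.02 in GM12815. CHEK1 (cluster 3354799), the kinase that acts below ATR, had nascent levels of 9.70 to 10.53 (median 10.06) against total levels of 9.02 to 9.80 (median 9.57). Its ratio of -0.11 ± 0.19 did not pass (adjusted p = 0.269).

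**Figure D2:**
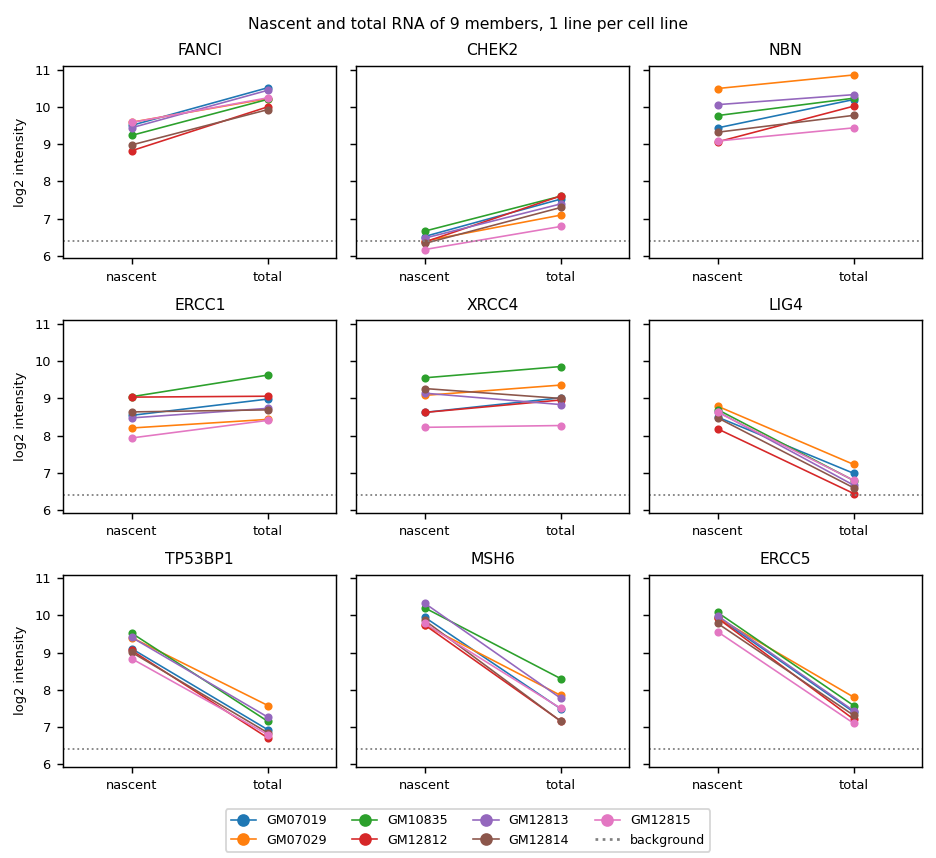
Nascent (left) and total (right) log2 intensity of the 9 called genes with a mean ratio of at least 0.8 in size; each line joins the 2 values of 1 cell line, and the dotted line is the common background of 6.40. FANCI, CHEK2, NBN and ERCC1 climb towards total RNA, LIG4, TP53BP1, MSH6 and ERCC5 drop steeply, and the nascent levels of CHEK2 lie about the dotted line. The array medians differ between fractions, so a flat line is below the median cluster.

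Ratios of genes whose proteins bind each other were set side by side within each line for 7 pairs. The pairs were chosen after the values were seen, so the differences are a description with no test. LIG4 minus XRCC4 was 1.88 ± 0.21 (SD, n = 7 lines), with line values from 1.62 to 2.21. MRE11 minus NBN was 1.75 ± 0.22, with line values from 1.44 to 2.11. ERCC4 minus ERCC1 was 1.01 ± 0.39, and RAD51C minus XRCC3 was 0.77 ± 0.38. In these 4 pairs the difference was positive in all 7 lines.

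In the other 3 pairs its sign varied between lines. RAD51D minus XRCC2 was -0.31 ± 0.31, from -0.64 to 0.21. BARD1 minus BRCA1 was 0.14 ± 0.26 with line values from -0.34 to 0.54. ERCC3 minus ERCC2 was -0.05 ± 0.24 with line values from -0.42 to 0.26.

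The lines themselves took different places. GM12812 had the lowest ratio of the 7 lines in 12 of the 32 genes and the highest in 6. GM12815 had the lowest ratio in 5 genes and the highest in 13. Each of these lines had 1 culture, so that line and culture cannot be told apart. The lowest and highest places were not counted over all tested clusters, so these counts cannot be read as particular to the repair genes. The median ratio over the 32 genes was -0.16 in GM07019, 0.01 in GM07029, 0.14 in GM10835, -0.16 in GM12812, 0.19 in GM12813, -0.01 in GM12814 and 0.08 in GM12815.

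Other genes of the same pathways also lay on both sides of the median cluster. Of 91 further DNA repair genes, 66 were tested, and the ratio was higher in 26, lower in 22 and not past the threshold in 18, with a median of -0.01. Of all tested clusters, 31.7% were higher and 31.7% lower. In 1 of the 66 the mean total RNA was below the common background. Those with the highest measured ratios were APEX1, which cuts the backbone at abasic sites (2.13 ± 0.34, SD, n = 7), XPC, which finds bulky lesions (1.94 ± 0.34), and POLQ, the polymerase of microhomology-mediated joining (1.18 ± 0.50). The total RNA of XPC and of POLQ was above the common background on 12 of 16 arrays each. The lowest were GTF2H3, a subunit of TFIIH (-1.79 ± 0.42), NEIL3, a glycosylase (-1.75 ± 0.61), and CETN2, a partner of XPC (-1.52 ± 0.26). XPC and its partner CETN2 thus lay near opposite ends.

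Of 22 further checkpoint genes, 17 were tested, and 7 were higher, 3 lower and 7 not past the threshold, with a median of 0.19. Of all tested clusters, 31.7% were higher and 31.7% lower. In 2 of the 17 the mean total RNA was below the common background, so their place among the tested genes rests on nascent RNA. The total RNA of RNF8 was above the background of the total arrays on 7 of 16 arrays. Its ratio therefore has only a lower bound, 1.27 with that background in place. High ratios were measured for RNF168, the ubiquitin ligase that recruits TP53BP1 (1.82 ± 0.27), CDC25A, the phosphatase that CHEK1 marks for destruction (1.52 ± 0.27), and CLSPN, the adaptor through which ATR activates CHEK1 (1.92 ± 0.50). The total RNA of CLSPN was above the background of the total arrays on 3 of 16 arrays, so that its ratio has only a lower bound, 1.40 with that background in place (0.51 in the lowest line), and no rank. The lowest were PKMYT1 (-0.23 ± 0.16) and CDC25B (-0.20 ± 0.19), a kinase and a phosphatase of the cyclin-dependent kinases, and TIMELESS, of the fork protection complex (-0.21 ± 0.07).

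The ratio was also set beside the span of the gene on the chromosome, from start to end with introns. Spearman's rho between the mean ratio and the gene span was -0.44 across the 32 genes and 0.02 across 9621 tested genes with a span in RefSeq. In the 16 genes with spans up to 41119 bases, 8 ratios were higher and 0 lower, with a median of 0.26. In the 16 genes with spans of 43039 bases or more, 4 were higher (RAD51C, MRE11, RAD52 and TP53BP1) and 8 lower, with a median of -0.33. The split by span was chosen after the values were seen. The calls of all tested genes were not split by span, so these counts have no background beside them. Genes are not independent replicates, and the ratio also went with the mean signal (rho -0.29 across the 32 genes and -0.22 across all tested clusters, with or without a span). The part of signal in the relation with span was not tested.

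**Figure D3:**
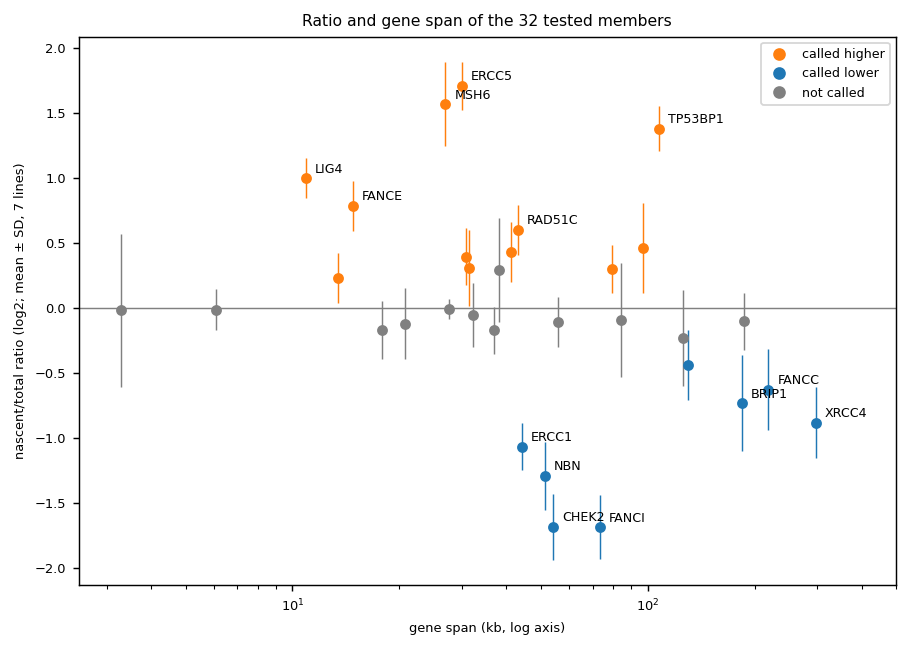
Mean nascent/total ratio over 7 lines (log2, bars are SD) against gene span in kilobases on a log axis for the 32 tested genes, coloured by call. All 8 genes called lower span at least 43039 bases, and 8 of the 12 called higher span at most 41119 bases. The calls of all tested genes were not split by span.

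To ask which of these genes differ between people, GM12813, GM07029 and GM10835 were compared over their 9 cultures. Between the 3 lines the ratio differed in 4 of 32 genes, where 25.4% of all tested clusters were called. Nascent RNA differed in 19 of the 32, against a background of 56.7%, and total RNA in 17, against 56.3%. Both fractions were called in 11 genes, nascent RNA alone in 8, total RNA alone in 6 and neither in 7. This joint split was not counted over all tested clusters, so it cannot be read as particular to these genes. The median range of line means over the 32 genes was 0.32 for the ratio, 0.31 for nascent RNA and 0.42 for total RNA, and over all tested clusters it was 0.34, 0.35 and 0.45. The labels call the cultures independent, and the p-values measure the spread between them.

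XRCC3, a gene of homologous recombination, had the smallest adjusted p for the ratio. Its 3 cultures gave -0.49, -0.32 and -0.43 in GM12813, -0.09, -0.07 and -0.19 in GM07029 and 0.28, 0.08 and 0.27 in GM10835. The lines did not overlap, and the F test gave an adjusted p of 0.0061. GM12813 minus GM10835 was -0.62 ± 0.11 (SE; adjusted p = 0.0023). Nascent RNA was 8.05 ± 0.04 in GM12813, 7.90 ± 0.05 in GM07029 and 8.66 ± 0.08 in GM10835 (SD, n = 3 cultures each), so that GM10835 stood apart. Total RNA was 7.66 ± 0.07, 7.25 ± 0.08 and 7.62 ± 0.10 in the same order, so that GM07029 stood apart.

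XRCC4 had ratios of -0.58, -0.51 and -0.40 in GM12813, -1.13, -0.74 and -1.25 in GM07029 and -1.25, -1.10 and -1.05 in GM10835 (adjusted p = 0.0147). GM12813 was the high line, by 0.64 ± 0.14 over GM10835 (SE; adjusted p = 0.0089) and by 0.55 ± 0.14 over GM07029 (adjusted p = 0.0471). Nascent RNA was 9.14 ± 0.09 in GM12813, 9.08 ± 0.22 in GM07029 and 9.55 ± 0.14 in GM10835 (SD, n = 3), and total RNA was 8.83 ± 0.25, 9.36 ± 0.28 and 9.85 ± 0.03. GM12813 minus GM10835 was -0.41 ± 0.11 in nascent RNA and -1.02 ± 0.16 in total RNA (SE; adjusted p = 0.0128 and 0.000395). The call for the ratio was lost without GM12813 replicate 2 (adjusted p = 0.0556), without GM12813 replicate 3 (0.0666) and in the F test without moderation (0.0521).

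MSH6 had ratios of 1.51, 1.92 and 1.83 in GM12813, 1.10, 1.33 and 0.97 in GM07029 and 1.06, 1.00 and 1.17 in GM10835 (adjusted p = 0.0147). GM12813 was again the high line with no overlap, by 0.68 ± 0.15 over GM10835 (SE; adjusted p = 0.0101) and by 0.62 ± 0.15 over GM07029 (adjusted p = 0.0408). Nascent RNA was 10.33 ± 0.05 in GM12813, 9.74 ± 0.16 in GM07029 and 10.20 ± 0.08 in GM10835 (SD, n = 3), and total RNA was 7.77 ± 0.26, 7.85 ± 0.22 and 8.30 ± 0.09. GM12813 was above GM07029 in nascent RNA (adjusted p = 0.000824) and below GM10835 in total RNA (adjusted p = 0.0152). The call was lost without GM12813 replicate 2 (adjusted p = 0.0759) or replicate 3 (0.0602), with the first array of each GM12813 culture (0.0947) and with no filter on dim clusters (0.0581).

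BARD1 was the remaining gene called for the ratio and is named because it completes the count of 4, having been chosen after its values were seen. Its ratios were 0.24, 0.13 and 0.25 in GM12813, -0.23, 0.03 and -0.10 in GM07029 and -0.49, -0.12 and -0.21 in GM10835 (adjusted p = 0.0377). GM12813 minus GM10835 was 0.48 ± 0.12 (SE; adjusted p = 0.0182). The call was lost in 5 of the 9 settings that left out a culture, without GM10835 replicate 1 or 3 and without each GM12813 culture in turn (adjusted p 0.0816 to 0.119). Nascent BARD1 RNA was 9.74 ± 0.04 in GM12813, 9.47 ± 0.10 in GM07029 and 9.31 ± 0.19 in GM10835 (SD, n = 3; adjusted p = 0.00821), and total RNA was 8.73 ± 0.14, 8.81 ± 0.21 and 8.75 ± 0.06 (adjusted p = 0.833). The count of genes called for the ratio was 11 without GM07029 replicate 1 and 1 without GM12813 replicate 2 or 3. The count of all clusters called also moved, from 1808 to 5065 of 14167 over the settings that left out a culture. It was 3595 with all cultures.

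**Figure D4:**
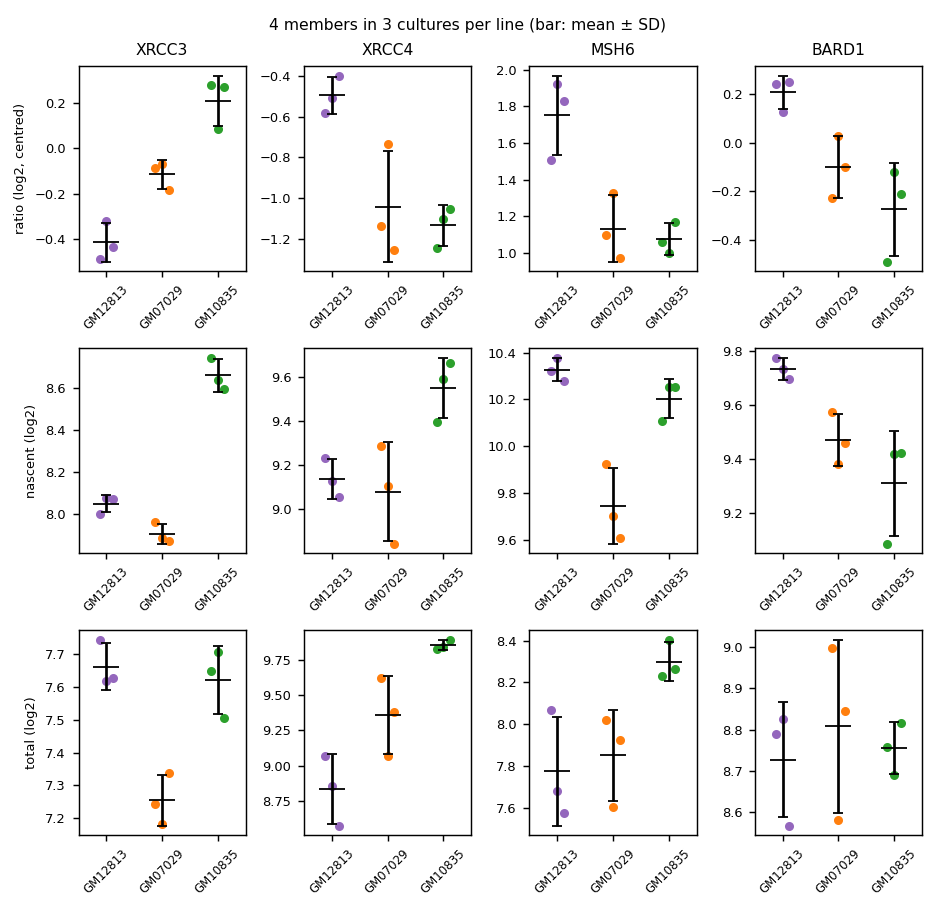
Nascent/total ratio (top, log2, centred), nascent RNA (middle, log2 intensity) and total RNA (bottom, log2 intensity) of XRCC3, XRCC4, MSH6 and BARD1 in 3 cultures of each line; points are cultures, and bars are mean ± SD. For XRCC4 and MSH6 the GM12813 ratios lie above those of both other lines, and for XRCC3 they lie below; each panel has its own axis, which does not start at 0.

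Each fraction was also compared between the 3 lines on its own. The median difference of all tested clusters was not 0: GM07029 minus GM10835 was -0.16 in nascent RNA and -0.10 in total RNA, and GM12813 minus GM10835 was -0.09 and -0.05. Of the 32 genes, 4 were higher and 15 lower in GM07029 than in GM10835 in nascent RNA, where 13.7% of all clusters were higher and 41.6% lower. After quantile normalization within the fraction the split was 14 higher and 9 lower, and the share of higher calls among all called clusters was 46.9% in place of 24.8%. The differences of GM07029 from GM10835 that follow are given relative to the median cluster as well.

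ERCC1 had the widest ranges in both fractions. Its nascent levels were 8.43, 8.50 and 8.50 in GM12813, 8.29, 8.17 and 8.16 in GM07029 and 9.17, 9.05 and 8.91 in GM10835. Total levels were 8.92, 8.78 and 8.50 in GM12813, 8.40, 8.21 and 8.70 in GM07029 and 9.61, 9.63 and 9.63 in GM10835. All GM10835 cultures were above the other 6 in both fractions. GM07029 minus GM10835 was -0.84 ± 0.09 in nascent RNA (SE; adjusted p = 1.22e-05), or -0.68 relative to the median cluster, and -1.19 ± 0.14 in total RNA (adjusted p = 6.88e-05), or -1.09 relative to it. The ERCC1 ratio did not differ past the threshold (adjusted p = 0.0988).

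NBN ran the other way. Its nascent levels were 10.14, 10.09 and 9.95 in GM12813, 10.63, 10.35 and 10.49 in GM07029 and 9.66, 9.81 and 9.82 in GM10835, with no overlap between lines. Total levels were 10.43, 10.52 and 10.03 in GM12813, 10.69, 10.91 and 10.96 in GM07029 and 10.25, 10.08 and 10.36 in GM10835, and GM07029 was again highest. It was above GM10835 by 0.73 ± 0.09 in nascent RNA (SE; adjusted p = 2.93e-05), or 0.89 relative to the median cluster, and by 0.62 ± 0.14 in total RNA (adjusted p = 0.00375), or 0.72 relative to it.

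PRKDC and BRCA1 were also higher in GM07029 than in GM10835 in total RNA. PRKDC had total levels of 10.01, 9.99 and 9.61 in GM12813, 9.99, 10.07 and 10.18 in GM07029 and 9.43, 9.29 and 9.46 in GM10835, which lay below both other lines. GM07029 minus GM10835 was 0.51 ± 0.08 (SE; adjusted p = 0.000194) in nascent RNA, or 0.68 relative to the median cluster, and 0.69 ± 0.12 (adjusted p = 0.00101) in total RNA, or 0.79 relative to it. BRCA1 had total levels of 7.63, 7.63 and 7.15 in GM12813, 7.80, 7.87 and 8.25 in GM07029 and 7.28, 7.12 and 7.51 in GM10835. All GM07029 cultures were above the rest, and GM07029 minus GM10835 was 0.67 ± 0.17 (adjusted p = 0.00654), or 0.77 relative to the median cluster.

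Nascent BRCA1 did not pass between the 3 lines (adjusted p = 0.166), but did after quantile normalization (0.00345). The F tests of total RNA were not past the threshold with the first GM12813 arrays for BRCA1 (adjusted p = 0.111), NBN (0.0514) and PRKDC (0.0505), and for BRCA1 also without GM07029 replicate 3 (0.0574). XRCC4, described above, had the second widest range of total RNA at 1.02.

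In nascent RNA, XRCC3, FANCE and UNG were lower in GM07029 than in GM10835. FANCE had nascent levels of 8.41, 8.41 and 8.42 in GM12813, 8.26, 8.11 and 8.07 in GM07029 and 8.82, 8.83 and 8.81 in GM10835, and the lines did not overlap. GM07029 minus GM10835 was -0.68 ± 0.08 (SE; adjusted p = 2.46e-05) for FANCE, or -0.51 relative to the median cluster. UNG had nascent levels of 9.61, 9.62 and 9.54 in GM12813, 9.24, 8.94 and 8.98 in GM07029 and 9.81, 9.73 and 9.59 in GM10835. GM07029 was below both other lines, by -0.66 ± 0.09 against GM10835 (adjusted p = 0.000109), or -0.49 relative to the median cluster. For XRCC3 the difference was -0.76 ± 0.08 (adjusted p = 1.36e-05), or -0.59 relative to the median cluster.

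**Figure D5:**
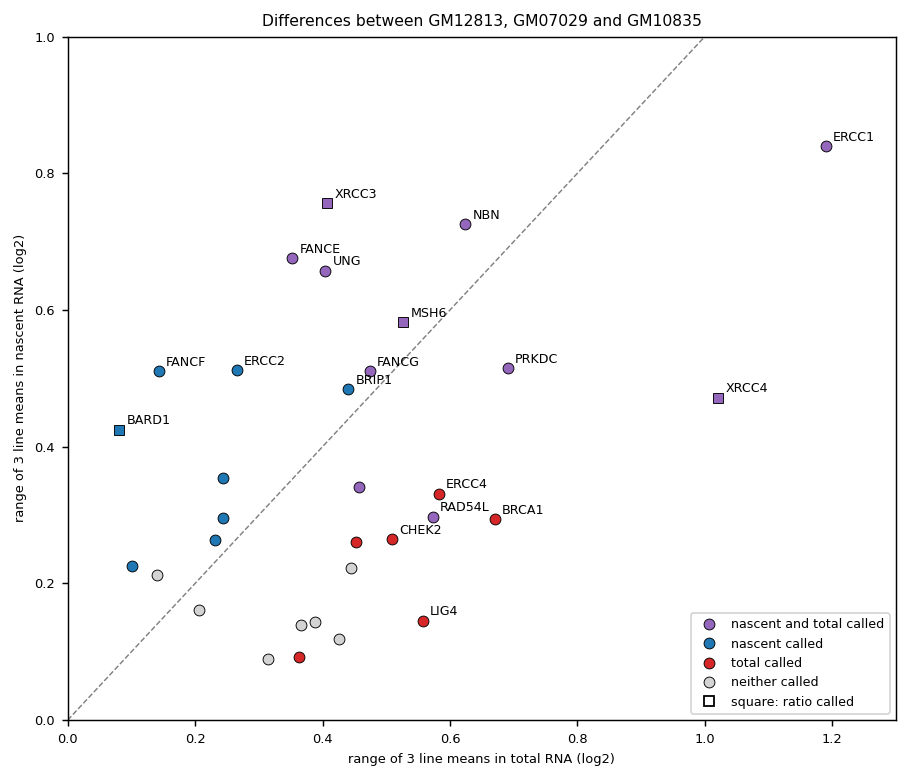
Range of the 3 line means (GM12813, GM07029, GM10835; log2) in total RNA on the horizontal axis and nascent RNA on the vertical axis for the 32 tested genes; colours give the fractions called by the F test, squares mark the 4 genes called for the ratio, and the dashed line marks equal ranges. ERCC1 is farthest out on both axes, and BARD1 has the smallest total range of 0.08 with a nascent range of 0.42.

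Of 18 tested proliferation genes, 6 were called between these lines in the ratio, where 25.4% of all clusters were, 11 in nascent RNA (56.7% of all clusters) and 9 in total RNA (56.3%). These shares were near the background. Their median level was 10.62 in GM12813, 10.31 in GM07029 and 10.63 in GM10835 in nascent RNA, and 9.96, 9.70 and 9.83 in total RNA. The widest total ranges were those of the replicative helicase subunits MCM5 (1.32), MCM6 (0.72) and MCM4 (0.71). MCM5 and MCM6 were highest in GM10835, at 10.80 and 10.03, and MCM4 was highest in GM12813, at 10.54. The part of proliferation in the differences of the repair genes was not tested.

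Promoters of repair genes are known targets of E2F, the factors that switch on genes at entry into S phase, and sites of that kind are shown here for the genes whose promoter window held one. The RefSeq promoters (GRCh38.p14; 250 bases before to 50 after a start) were searched on both strands for TTTCCCGC, TTTCGCGC, TTTGCCGC and TTTGGCGC, with no other motif searched. Of the 29 tested genes with an entry, 4 held a match, against 5.40% of 15842 genes. They are MSH6 and XRCC2, with higher ratios, UNG, also higher, and FANCC, lower. Capitals mark the match, with 10 bases on each side, read 5′ to 3′ on the strand that holds the motif: MSH6 at chr2:47783138-47783165 (plus strand), XRCC2 at chr7:152676103-152676130 (plus), FANCC at chr9:95317738-95317765 (minus) and, in a second match, at chr9:95317864-95317891 (plus), and UNG at chr12:109098099-109098126 (plus).
MSH6: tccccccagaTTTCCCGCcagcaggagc
XRCC2: gagactcaacTTTCCCGCcaccaacgcc
FANCC: tcgtcggaatTTTCCCGCgacgccgcgg
FANCC second match: gtgttcccggTTTCGCGCggaagccccg
UNG: agggaggtttTTTGCCGCgaaaagacca
MSH6, XRCC2 and the first FANCC match have the same 8 letters, and the second FANCC match and UNG each have another form. A match describes letters in a window and is no evidence of binding.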

How the data were processed

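The deposited values were log2 intensities of 21788 transcript clusters on 32 human exon arrays, with no missing value. Per the submitters' processing notes, Affymetrix Power Tools and genome build hg18 were used. How probes were summarized and background-corrected, and whether both fractions were normalized as one set, is not given in the sources used here. Per the labels' protocols, ribosomal RNA was reduced before cDNA synthesis. Symbols came from the platform table: 14405 clusters had 1 symbol, 2365 several and 5018 none, and 14377 symbols were matched to RefSeq. Each measured gene had 1 cluster with its symbol alone; clusters shared with other symbols (1 for ERCC1, ERCC2 and CHEK2, 2 for FANCI) were not used.

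Technical duplicates were averaged, and each culture's ratio was centred on the median of 14167 clusters. Over 7 lines, 1 ratio per line was tested against 0, and 3 lines were compared over 9 cultures with moderated F tests and pairwise contrasts, with limma 3.58.1 in R 4.3.3 (eBayes with trend, two-sided). Adjusted p is Benjamini-Hochberg over all tested clusters, threshold 0.05; "higher", "lower" and "called" refer to it. On simulated data of 14167 genes, log2 differences of 0.5, 1 and 2 were called in 38.8%, 88.1% and 98.5% of genes over 7 lines, and in 13.4%, 79.1% and 98.5% between 3 lines. These shares depend on the spread and the share of changed genes that were simulated. They are not rates of missed genes in the deposited data.

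Nascent and total RNA of the same culture are paired per the labels. Genes are described in detail with a called ratio of at least 0.8 in size, or a called range between 3 lines of at least 0.6, besides a few named whatever their values; of further repair and checkpoint genes the 3 highest and 3 lowest called ratios; of proliferation genes the 3 widest total ranges. The genes and lists were chosen with earlier results of these data known. Backgrounds of each fraction, partner pairs, spans and promoter matches were added after seeing the data.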

Additional observations from a re-analysis of the deposited data

Results flagged for a closer look

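Each of the 32 tested genes was checked in ratio, nascent and total RNA for a line far from the other 6, by the gap to its nearest neighbour over the whole range (above 0.568 for 7 lines). Of 96 checks, 4 found one, and chance gives about 1 in 20. Nascent ERCC3 was lowest in GM12815 at 9.30, with the nearest line at 9.76 and the highest at 10.08. Nascent FANCC was also lowest in GM12815, at 7.70, with the nearest line at 8.19. Total BARD1 was lowest in GM12815 at 8.36, with the nearest line at 8.73. The BRIP1 ratio was lowest in GM12812 at -1.51, with the nearest line at -0.83. GM12815 and GM12812 had 1 culture each.

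The ratio differed between GM12813, GM07029 and GM10835 in 4 genes, by the F test described above. The range of line means was 0.68 for MSH6, 0.64 for XRCC4, 0.62 for XRCC3 and 0.48 for BARD1. XRCC4 and LIG4 differed by between 1.62 and 2.21 within every line, although only XRCC4 of the 2 was called between lines; the difference between their line effects was not tested.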

How the results depend on the processing

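Centring sets the direction of a ratio. Without it, 11639 clusters were called higher and 762 lower (4497 and 4494 with it), 25 repair genes higher and 4 lower (12 and 8), and their median was 0.74 (-0.04). The sign then changed for ERCC2 (0.65), ERCC3 (0.60), ERCC4 (0.72), BRCA1 (0.54), BARD1 (0.68), BRIP1 (0.0401), RAD51D (0.77), XRCC3 (0.60), FANCC (0.14), FANCF (0.76), FANCG (0.76), PRKDC (0.67), ATR (0.33) and CHEK1 (0.66). With no replicate block, nascent and total RNA taken as unpaired groups centred per array, 2841 clusters and 6 repair genes were called higher, with a median of -0.18. Over 7 lines, leaving out a line gave 4187 to 4496 clusters higher and 4127 to 4471 lower, 10 to 12 repair genes higher and 8 to 9 lower, with medians from -0.09 to -0.00412. XRCC3 was called lower after quantile normalization (-0.27), and PALB2 higher with cultures as replicates (0.34).

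Between 3 lines, clusters called for the ratio (3595) numbered 2012 with no filter on dim clusters, 2142 with the first array of each GM12813 culture and 2279 without moderation. Repair genes called for the ratio (4) were 2 with no filter and 2 with first arrays, and total RNA called 8 (17) with first arrays. The count of all clusters called for total RNA with first arrays is not given here. The fall from 17 to 8 therefore cannot be read as particular to the repair genes. Leaving out 1 culture gave 1808 to 5065 clusters and 1 to 11 repair genes for the ratio, 7094 to 9163 and 14 to 22 for nascent RNA, and 6589 to 8029 and 13 to 19 for total RNA. With the replicate number as a block, 2458 clusters and 3 repair genes were called for the ratio, where BARD1 was lost (adjusted p = 0.0635), 7442 and 17 for nascent RNA and 7011 and 13 for total RNA. Deviations of same-numbered cultures of different lines had correlations of -0.46 to 0.39. Differently numbered cultures were not compared, so this range cannot decide whether the numbers pair lines. No tested gene had more than 1 cluster of its own; clusters shared with other symbols were not used. A nascent level at background bounds the CHEK2 ratio.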

Other observations

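Technical duplicates of the GM12813 cultures differed over the 32 tested repair and checkpoint genes by a median of 0.09 in nascent RNA and 0.16 in total RNA (96 pairs of gene and culture, absolute log2 difference). In total RNA, the median was 0.25 for the first culture, 0.10 for the second and 0.23 for the third. The repeat array read higher in 6, 18 and 24 of the 32 genes in these 3 cultures. The SD of the ratio between cultures, as a median over the 32 genes, was 0.10 in GM12813, 0.23 in GM07029 and 0.11 in GM10835, against 0.12, 0.22 and 0.13 over all tested clusters.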
